A study of Mus musculus with 6 samples.

Results

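The 8 genes described here, Gata6, Gata4, Sox17, Sox7, Foxa2, Pdgfra, Dab2 and Lama1, mark or drive the primitive endoderm and its descendants, and were chosen by name out of 21938 protein-coding genes. DPPA4 occupancy near them was profiled by CUT&RUN, in which an antibody steers a nuclease to the DNA that a protein occupies and the released fragments are sequenced. The cells were mouse embryonic stem cells (mESCs) of a BL6/129 hybrid strain in which endogenous EHMT2, an H3K9 methyltransferase, carried a dTAG degron, and which held a GFP reporter under the MERVL retroviral promoter. All cells had been kept in dTAG for 72 h before sorting, so both groups were depleted of EHMT2, and cells without dTAG were not analysed here. GFP-negative cells stand for mESCs. Cells positive for GFP stand for 2-cell-like cells (2CLCs), defined only by activity of that promoter. Each group gave 1 peak list pooled over 2 DPPA4 libraries, which leaves no replicate error to set beside any value. No difference between the lists was tested, and the number of reads kept after filtering behind each list is not given in the sources used here. Every peak within 50 kb of a gene body (GENCODE vM21, mm10) was taken, which gave 38 peaks of the GFP-negative list and 25 of the GFP-positive list, lying in 43 separate regions out of 99695.

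The primitive endoderm is the layer of the blastocyst that faces the cavity and later forms the visceral and parietal endoderm of the yolk sac. FGF signalling in the inner cell mass favours it, and GATA6 acts at the top of its programme, followed by PDGFRA, SOX17, GATA4 and SOX7, while NANOG opposes GATA6 in cells that become epiblast. In mESCs these genes are mostly silent and many of them sit in CpG-rich chromatin that carries both activating and repressive histone marks. DPPA4 is a DNA-binding protein that works with DPPA2, is known for binding GC-rich promoters of such developmental genes in mESCs, and takes part in the activation of 2-cell genes.

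The occupied DNA itself is shown first, because the regions seen in both lists and those seen in the GFP-negative list alone differed in base composition. Each run below is 151 bases of the plus strand (RefSeq sequence of GRCm38.p6, which carries the mm10 coordinates), written in lower case with CpG dinucleotides in capitals, and lies at the summit of its region or at the nearest stretch inside the region free of annotated untranslated bases. The summit of a region with peaks of both lists is the midpoint between theirs, so the Gata4 run lies between the summits of the lists. The first 4 come from regions occupied in both lists: the Lama1 promoter (chr17:67697086-67697236, 12 CpGs), the first of 3 Gata4 promoter regions (chr14:63245381-63245531, 13 CpGs), the Dab2 promoter (chr15:6386447-6386597, 6 CpGs) and the gene body of Sox17 (chr1:4492936-4493086, 4 CpGs). The last 3 come from regions of the GFP-negative list alone: the Sox7 promoter (chr14:63943756-63943906, 16 CpGs), a site upstream of Foxa2 (chr2:148053367-148053517, 2 CpGs) and a site upstream of Lama1 (chr17:67693995-67694145, 0 CpGs). The Dab2 and Sox7 runs were moved off the summit to avoid untranslated bases, with offsets of -142 and 68 bases. The Dab2 run does not contain the summit of its region, so its 6 CpGs do not describe that summit. The 201 bases around the Dab2 summit held 17 CpGs. The Sox7 run lies inside the gene, past the start site, so its CpGs are not upstream sequence.
Lama1 promoter: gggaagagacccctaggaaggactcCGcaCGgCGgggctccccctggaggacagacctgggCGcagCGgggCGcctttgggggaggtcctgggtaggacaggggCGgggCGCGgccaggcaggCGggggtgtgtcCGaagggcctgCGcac
Gata4 promoter: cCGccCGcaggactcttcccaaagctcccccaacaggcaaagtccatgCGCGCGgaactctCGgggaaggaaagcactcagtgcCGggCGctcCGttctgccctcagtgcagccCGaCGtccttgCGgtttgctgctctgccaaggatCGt
Dab2 promoter: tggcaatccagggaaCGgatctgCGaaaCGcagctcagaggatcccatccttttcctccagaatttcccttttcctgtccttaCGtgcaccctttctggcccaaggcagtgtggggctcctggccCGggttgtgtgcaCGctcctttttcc
Sox17 gene body: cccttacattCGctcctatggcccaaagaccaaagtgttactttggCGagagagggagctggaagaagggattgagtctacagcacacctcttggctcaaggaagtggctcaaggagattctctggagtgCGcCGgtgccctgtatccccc
Sox7 promoter: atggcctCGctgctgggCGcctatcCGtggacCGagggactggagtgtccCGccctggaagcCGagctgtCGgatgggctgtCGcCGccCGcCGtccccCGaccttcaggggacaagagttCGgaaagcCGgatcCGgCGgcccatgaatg
Foxa2 upstream: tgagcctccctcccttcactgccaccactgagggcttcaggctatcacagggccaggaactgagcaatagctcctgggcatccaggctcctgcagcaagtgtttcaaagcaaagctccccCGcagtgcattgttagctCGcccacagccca
Lama1 upstream: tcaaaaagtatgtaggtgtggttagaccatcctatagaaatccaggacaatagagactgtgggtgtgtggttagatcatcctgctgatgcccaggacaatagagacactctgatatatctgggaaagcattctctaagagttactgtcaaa

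All 8 genes had a peak within 50 kb in the GFP-negative list and 6 did in the GFP-positive list, where Sox7 and Foxa2 had none. The same held for 91.5% and 90.0% of all protein-coding genes. The GFP-negative list contributed 60.3% of the 63 peaks near the genes (Wilson 95% interval 48.0 to 71.5%, which covers counting error only and treats neighbouring peaks as independent), and 60.5% of all mouse peaks, since it held 83602 of them against 54642. The 8 genes together therefore showed the ratio of the lists, 1.53, and the differences lay between the genes. Gata4 was the one gene with more peaks in the GFP-positive list, 13 against 11. Gata6, Sox17 and Dab2 had as many in either list (2, 1 and 4). Pdgfra had 9 GFP-negative and 3 GFP-positive peaks, Lama1 5 and 2, and Sox7 and Foxa2 3 and 0 each.

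**Figure D1:**
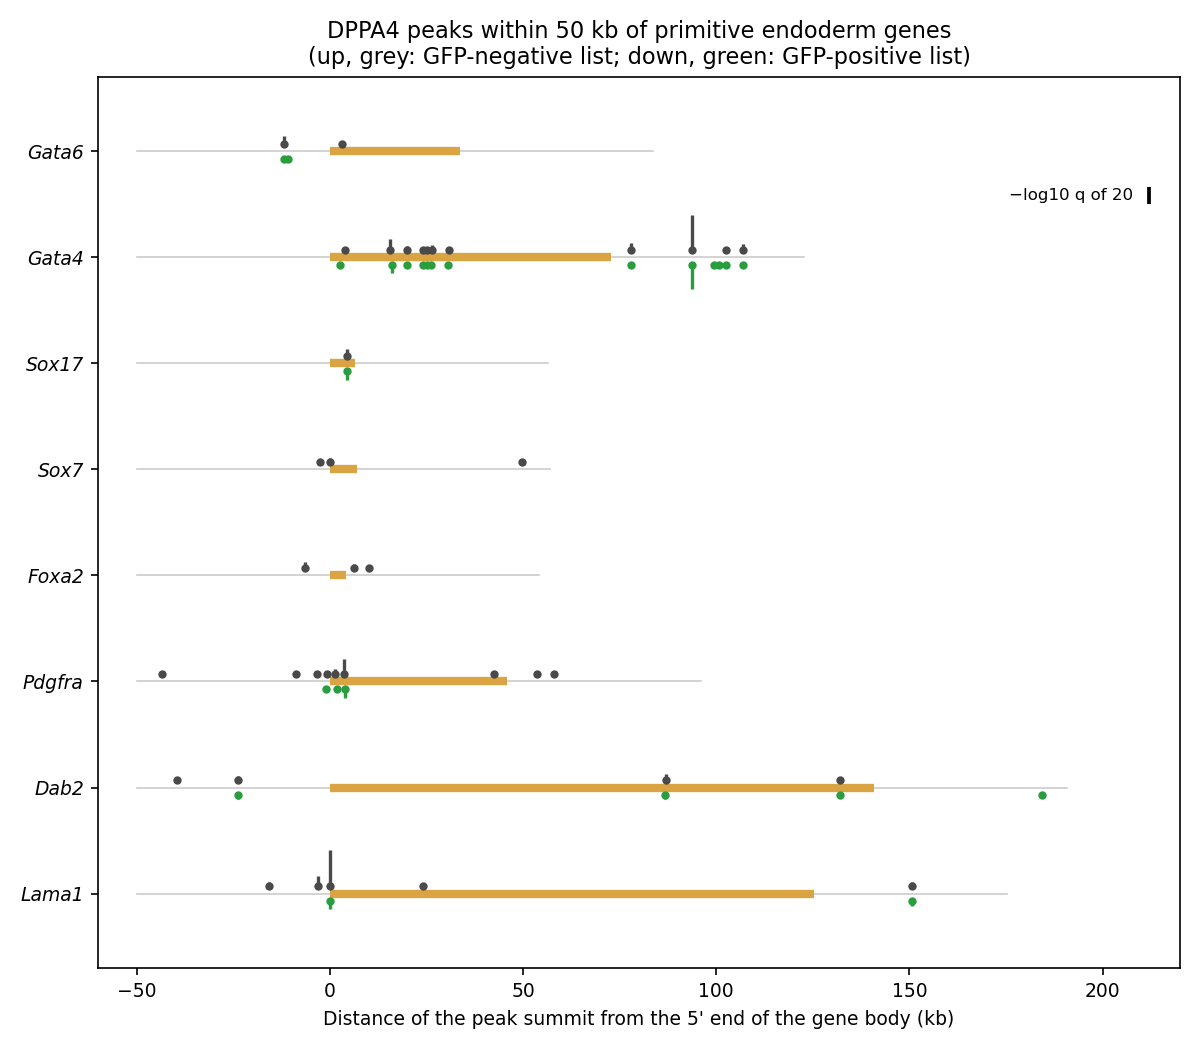
Positions of DPPA4 peak summits along the 8 genes, with distance from the 5′ end of the gene body in kb on the x axis and 1 row per gene. Yellow bars are gene bodies, dots are summits (grey and upward, GFP-negative list; green and downward, GFP-positive list) and stem length is the −log10 q; the tallest stems are the GFP-negative Lama1 promoter peak at 42.1 and the site downstream of Gata4 at 40.7.

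A promoter peak was one with its summit at most 2.5 kb before or 0.5 kb past an annotated start site of the gene. By this rule 6 of the 8 genes had a promoter peak in the GFP-negative list, against 67.8% of protein-coding genes, and 4 had one in the GFP-positive list, against 59.3%. Gata4, Pdgfra, Dab2 and Lama1 had one in both lists (57.0% of protein-coding genes). Gata6 and Sox7 had one in the GFP-negative list only (10.8%), no gene had one in the GFP-positive list only (2.32%), and Sox17 and Foxa2 had one in neither (29.9%). Per 100 kb of gene body and flanks, the median of the 8 genes was 2.51 GFP-negative and 1.22 GFP-positive peaks, below the medians of 4.65 and 2.96 over all protein-coding genes. Sox17 was the sparsest in the GFP-negative list at 0.940 peaks per 100 kb, at the 15.2 percentile of genes, and Gata4 the densest in both, at the 59.1 and 74.4 percentiles.

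GATA6 is the transcription factor that initiates the primitive endoderm programme. Gata6 (ENSMUSG00000005836.10, chr18:11052064-11085635, plus strand) had its strongest DPPA4 site 11.9 kb upstream of the gene, inside an intron of the non-coding gene 1010001N08Rik. This site was occupied in both lists with summits at the same base, and the fold enrichment over the background that the peak caller estimated was 6.51 in GFP-negative cells and 3.90 in GFP-positive cells. The corresponding −log10 q, the peak's adjusted significance, was 9.21 and 2.95. Because the lists are not on 1 scale, each value was also placed by its percentile in its own list, here 73.7 and 45.8. A percentile depends on how many weak peaks its list holds and the lists differ in length, so gaps in percentile between the lists are descriptions and not measured changes in occupancy. A peak of the GFP-positive list alone, 11.0 kb upstream, had a −log10 q of 1.46, and 69.7% of its summit window of 201 bases was soft-masked repeat. The Gata6 promoter peak of the GFP-negative list was among the weakest of that list, with a −log10 q of 1.45 at the 3.99 percentile. It lay 15 bp downstream of the start of an internal transcript annotated as a retained intron, and with start sites of the GENCODE basic transcripts alone, or with the GFP-negative list cut to the length of the other, Gata6 had no promoter peak.

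GATA4, a zinc finger factor that acts with GATA6, had the most peaks. Gata4 (ENSMUSG00000021944.15, chr14:63198922-63271692, minus strand) lay among 14 regions, of which 10 were common to both lists, 1 was seen in the GFP-negative list only and 3 in the GFP-positive list only. A run of 3 neighbouring regions lay in its promoter, and all were common. The first, 0.185 kb upstream of a start site, had a −log10 q of 5.92 in GFP-negative cells and 2.03 in GFP-positive cells. The second, 1.27 kb upstream, had 2.14 and 2.66, and the third, 2.35 kb upstream, 1.63 and 1.46. The order of strength among these regions thus differed between the lists, with the proximal one highest in GFP-negative cells and the second highest in GFP-positive cells. A further common region inside the gene, 10.6 kb upstream of that start site, was stronger than the promoter in both lists, with fold enrichments of 8.36 and 7.19 (percentiles 80.6 and 77.9). The 3 regions of the GFP-positive list alone were weaker than that region, with a −log10 q of 2.04, 1.69 and 3.06. The last exceeded all promoter regions of Gata4 in that list, and the first lay in repeat sequence.

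The strongest region near Gata4 was not at the gene. It lay at chr14:63177591-63178747, downstream of Gata4 and in the promoter of Fdft1, which encodes squalene synthase. Fold enrichment there was 18.1 in GFP-negative and 14.1 in GFP-positive cells, and the percentiles were 95.6 and 95.1. The promoter of Neil2, a DNA repair glycosylase gene on the same side, was occupied at the 71.4 percentile of the GFP-negative list and at the 2.33 percentile of the GFP-positive list. Peaks in promoters of other genes made up 7 of the 38 GFP-negative and 3 of the 25 GFP-positive peaks near the 8 genes, so a peak within 50 kb cannot be assigned to the member by distance alone.

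The SOXF factors SOX17 and SOX7, which act downstream of GATA6, differed from each other. Sox17 (ENSMUSG00000025902.13, chr1:4490931-4497354, minus strand) had a single region, common to both lists, whose summits in the lists were 1 bp apart. It was the one gene whose strongest peak stood higher in GFP-positive cells, with a fold enrichment of 6.64 against 5.64, a −log10 q of 10.6 against 7.52 and a percentile of 80.4 against 69.2. The summit lay inside the gene, 593 bp downstream of an internal start site and so just beyond the promoter window. With promoters drawn as 1 kb to either side of a start site, or with any overlap of the peak counted, Sox17 had a promoter peak in both lists, which raised the counts to 7 and 5 genes. Sox7 (ENSMUSG00000063060.6, chr14:63943673-63950732, plus strand) had no GFP-positive peak nearer than 75.6 kb to its gene body. Its GFP-negative promoter peak was broad, 1946 bp, with the summit 90 bp downstream of the start, a fold enrichment of 4.93 and a −log10 q of 4.43 (percentile 55.1). The other GFP-negative sites of Sox7 were weaker, at 2.48 and 2.77.

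FOXA2, a forkhead pioneer factor of visceral and definitive endoderm, had no promoter peak in either list. Foxa2 (ENSMUSG00000037025.11, chr2:148042877-148046969, minus strand) had 3 narrow GFP-negative regions of 220 to 295 bp, all outside its gene body, and its nearest GFP-positive peak lay 124 kb away. The strongest, 6.47 kb upstream at the promoter of the transcript Gm27420, had a fold enrichment of 6.42 and a −log10 q of 7.43 (percentile 68.7). The next, 4.57 on that scale, lay at a promoter of the non-coding gene 9030622O22Rik downstream of Foxa2.

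PDGFRA is the receptor tyrosine kinase by which primitive endoderm cells are commonly recognised. Pdgfra (ENSMUSG00000029231.15, chr5:75152292-75198215, plus strand) had 3 common regions, and all were promoter regions of its annotated start sites. The strongest lay 50 bp downstream of an internal start site, with fold enrichments of 10.5 and 6.86 and percentiles of 85.6 and 79.9 in GFP-negative and GFP-positive cells. The remaining common regions had a −log10 q of 6.44 and 2.66, and of 2.89 and 1.93. The 6 other regions around Pdgfra, from 43.6 kb upstream to beyond its 3′ end, were found in the GFP-negative list only, and their −log10 q did not exceed 2.89. Every distal peak of Pdgfra was thus in the GFP-negative list, and all were weak. With the lists at equal length Pdgfra had 4 GFP-negative and 3 GFP-positive peaks.

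DAB2 is an endocytic adaptor needed for positioning of endoderm cells. Dab2 (ENSMUSG00000022150.16, chr15:6299788-6440712, plus strand) was occupied at an internal start site and not at its most upstream one. This promoter region had fold enrichments of 6.42 and 5.24 and percentiles of 68.7 and 63.8. An intronic common region was weak in both lists, with a −log10 q of 2.17 and 1.46. The sites in 1 list alone were as weak, 1.5 in GFP-negative cells far upstream and 2.66 in GFP-positive cells inside C9, a complement gene past the 3′ end. A region 23.8 kb upstream was as strong in GFP-positive cells (fold enrichment 5.24, percentile 63.8) and had 4.94 and 55.9 in GFP-negative cells. That upstream site was repeat sequence: 98.0% of the 201 bases at its summit were soft-masked, and its 31-base words had a median of 3 copies in the genome. Reads that match several copies were placed at 1 of them, so the occupied copy is uncertain there.

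LAMA1, the laminin alpha chain of the early basement membranes, had the strongest promoter peak of the 8 genes in the GFP-negative list, while Pdgfra had it in the GFP-positive list by −log10 q (10.3 against 9.12). Lama1 (ENSMUSG00000032796.8, chr17:67697259-67822647, plus strand) had a fold enrichment of 18.4 and a −log10 q of 42.1 in GFP-negative cells, at the 95.9 percentile. In GFP-positive cells the values were 7.17, 9.12 and 77.0. The summits were 47 bp apart, but the peak spanned 2574 bp in the GFP-negative and 963 bp in the GFP-positive list. Lama1 also held the strongest site confined to 1 list, 3.19 kb upstream of its start, with a fold enrichment of 7.35 and a −log10 q of 12.4 in GFP-negative cells. A second such site 15.9 kb upstream had 5.33, and an intronic one 1.90. The other common region, in an intron of Arhgap28 past the 3′ end, differed little between the lists, with fold enrichments of 5.39 and 5.32. Of GFP-negative peaks with a −log10 q of 10 or more, 15.7% had no partner in the GFP-positive list genome-wide, and near the 8 genes the 3.19 kb site was the single one of 5.

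**Figure D2:**
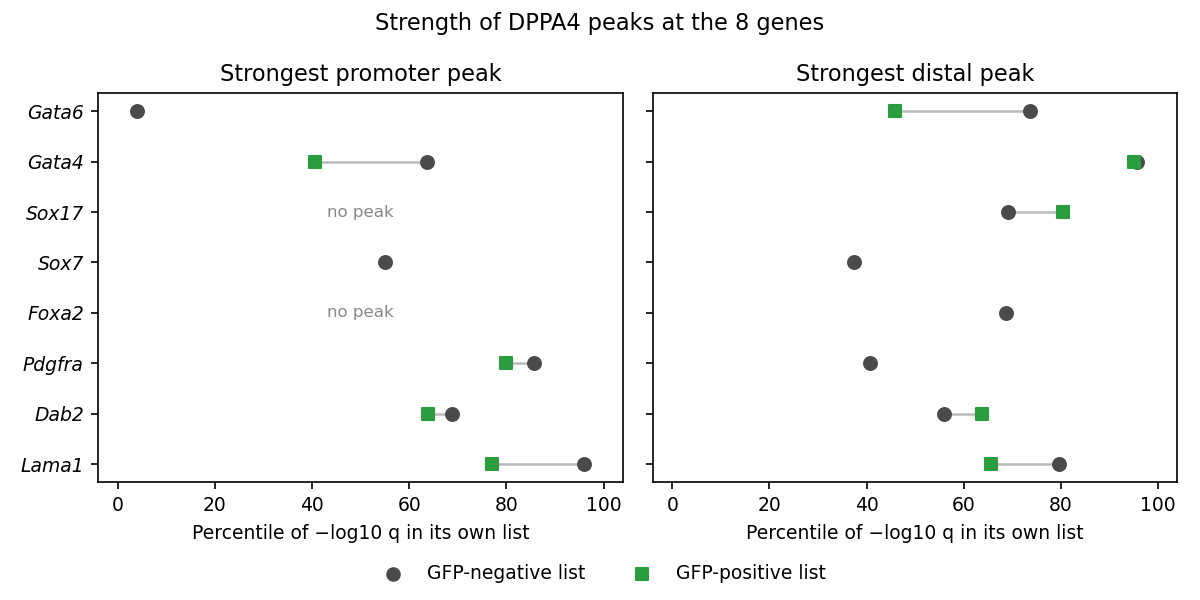
Percentile of the −log10 q of the strongest promoter peak (left) and the strongest distal peak (right) of each gene within its own list (grey circles, GFP-negative; green squares, GFP-positive). The gap at the Lama1 promoter runs from 95.9 to 77.0, Sox17 and the distal site of Dab2 are the genes where the GFP-positive value is higher, and a missing symbol means that the list holds no such peak.

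Sorted by class, 20 of the 43 regions (46.5%) were common, 18 (41.9%) were GFP-negative-specific, meaning that no GFP-positive peak shared a base with them, and 5 (11.6%) were GFP-positive-specific. Over regions within 50 kb of any protein-coding gene the shares were 35.0%, 47.7% and 17.3%. The Wilson 95% intervals of the members' shares, 32.5 to 61.1%, 28.4 to 56.7% and 5.07 to 24.5%, include those values. They cover counting error only, treat neighbouring regions as independent and do not measure the spread between genes. Gata4 held 10 of the 20 common regions, and without it the shares were 34.5%, 58.6% and 6.90%. Cutting the GFP-negative list to its strongest peaks, so that both lists had equal length, moved these shares. Then 47.9% of the peaks near the genes were GFP-negative, 21.9% of regions were found in GFP-negative cells alone and 28.1% in GFP-positive cells alone. Lists of equal length split evenly genome-wide by construction, which is the share to set beside 47.9%. Class shares near all protein-coding genes at equal length are not given here, so 21.9% and 28.1% cannot be set beside the full-length shares above. At equal length Gata4 had 7 GFP-negative and 13 GFP-positive peaks, Gata6 1 and 2, and Dab2 2 and 4. Lama1 kept 4 and 2, and Sox7 and Foxa2 2 and 0 each.

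**Figure D3:**
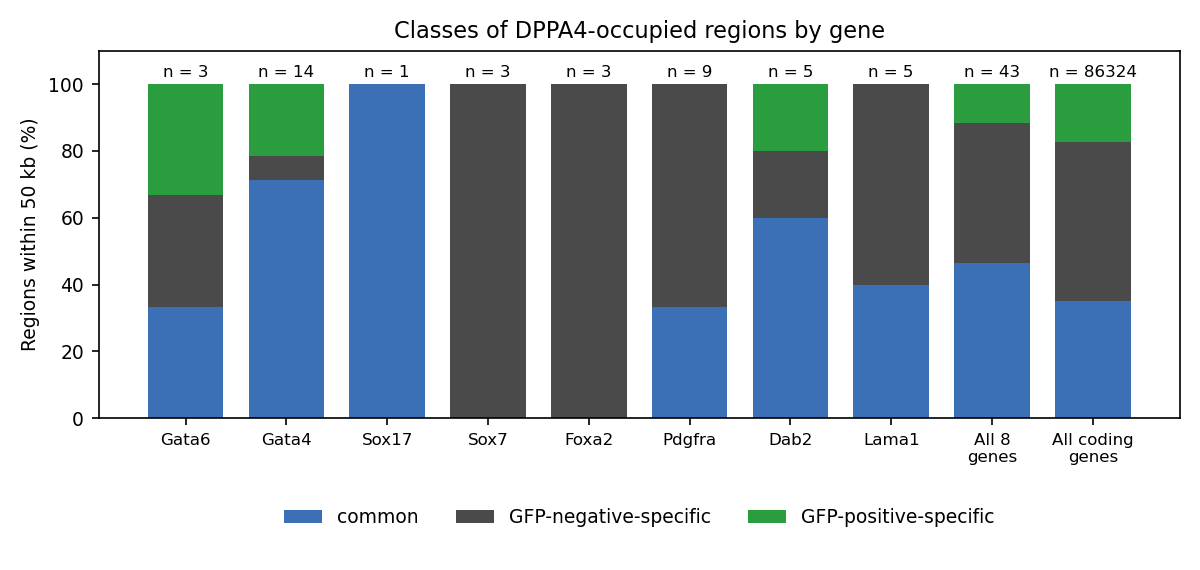
Share of regions within 50 kb of each gene found in both lists (blue), in the GFP-negative list alone (grey) or in the other list alone (green), in percent, with the number of regions above each bar and all protein-coding genes at the right. Sox7 and Foxa2 have GFP-negative-specific regions only, Gata4 holds 10 of the 20 common ones, and the 8 genes together have 46.5% common against 35.0% near all genes.

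By the highest −log10 q of each region, regions found in 1 list were weaker than common ones near the genes, as they were genome-wide. A common region took the higher value of its 2 lists, so part of this contrast is built into the measure. Of the 18 GFP-negative-specific regions 3 reached a −log10 q of 5 (16.7%, against 21.5% of all regions of that class). These were the Foxa2 upstream site and both Lama1 upstream sites, and the median was 2.14 against 2.59 over all. None of the 5 GFP-positive-specific regions reached 5, against 11.1% of all such regions, and 3.06 at an intronic site of Gata4 was the highest value. Of the 20 common regions 13 reached 5 (65.0%, against 75.5% of all common regions). Their median was 6.18, below the 10.8 of all common regions. In the lists as a whole, 82.0% of GFP-negative peaks with a −log10 q below 2 had no partner in the other list, against 70.8% from 2 to 5 and 47.2% from 5 to 10. Near the 8 genes the corresponding counts were 7 of 9, 8 of 14 and 2 of 10. For GFP-positive peaks the genome-wide shares were 57.4%, 40.6% and 18.9%, and the counts near the genes were 2 of 6, 3 of 11 and 0 of 5.

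Within the common regions the percentile was higher in the GFP-positive list in 6 of 20 (30%), against 33.3% of all 34856 common regions. The median difference in percentile, GFP-positive minus GFP-negative, was -6.81 near the genes and -5.30 over all. The median ratio of fold enrichment, GFP-positive over GFP-negative, was 0.872 and 0.798. Summits of the lists lay a median of 87.0 bp apart (0 to 383 bp), and within 200 bp in 80.0% of the regions against 76.8% overall. The peak was wider in the GFP-negative list in 13 of the 20 (65.0%), against 46.0% of all common regions.

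The classes differed in base composition near the genes as they did genome-wide. In the 201 bp around the summit the median GC content was 61.9% where both lists had a peak, 53.2% in the GFP-negative-specific class and 44.8% in the GFP-positive-specific one, and 60.7%, 52.7% and 50.2% over all regions of each class. The ratio of observed to expected CpGs exceeded 0.6 in 10 of the 20 common regions (all common regions 41.7%), in 4 of the 18 regions seen in GFP-negative cells alone (22.2%, against 7.64% of all such regions) and in 0 of the 5 seen in GFP-positive cells alone (10.9% of all such regions). The 4 GFP-negative-specific regions above that value were the promoter of Sox7, a site 2.74 kb upstream of it, the internal promoter of Gata6 and the site in the 9030622O22Rik promoter near Foxa2. The upstream Lama1 site shown above had no CpG at all. In 41 of the 43 summit windows the 31-base words had a median copy number of 1, the exceptions being the Dab2 upstream site and a GFP-positive-specific site in Fdft1 near Gata4, with medians of 3 and 7. Every word occurred once in 37 of the windows. In the GFP-positive-specific window near Gata6, 54.4% of words were unique and the most repeated had 27227 copies, so read placement is uncertain there too. At least 50% of the window was soft-masked in 2 of the 5 GFP-positive-specific regions, near Gata6 and Gata4, and in none of the 18 found in GFP-negative cells alone. Over all regions of these classes the shares were 44.5% and 11.8%.

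**Figure D4:**
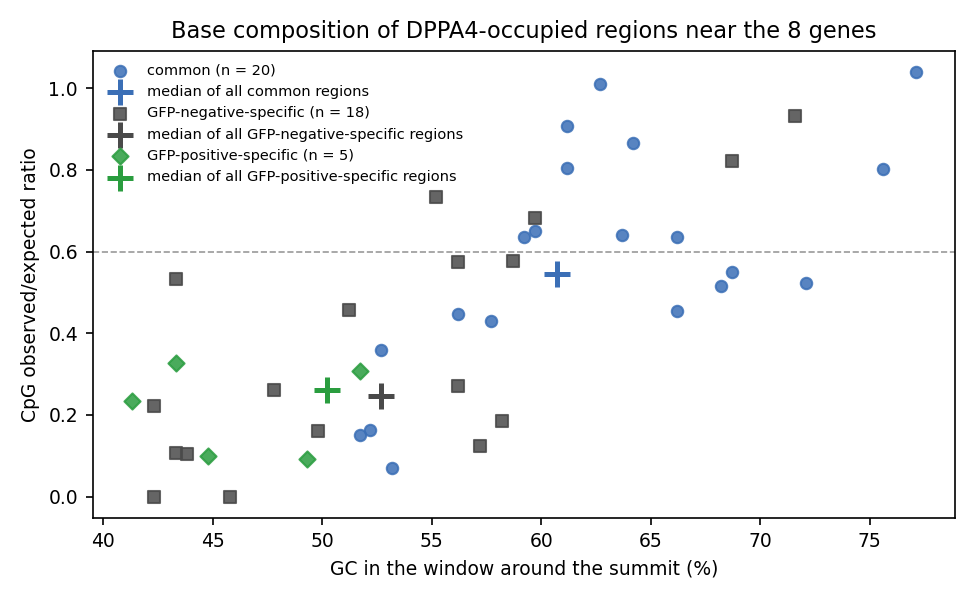
GC content (x axis, percent) and CpG observed/expected ratio (y axis) in 201 bp around the summit of each of the 43 regions, by class, with crosses at the medians of all regions of a class and a dashed line at 0.6. Common regions (blue) reach up to 77.1% GC, and all 5 GFP-positive-specific regions (green) lie below the line.

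The letters GATAA, the core that GATA factors read, and ACAAT, a core of SOX sites, were searched on both strands of the same windows. GATAA was found in 0 of the 20 common regions (9.03% of all common regions), 4 of the 18 found in GFP-negative cells alone (15.0%) and 1 of the 5 found in GFP-positive cells alone (17.7%). ACAAT was found in 2 common regions (13.7% of all of that class), in 8 of those in GFP-negative cells alone (27.4%) and in 0 of those in GFP-positive cells alone (23.3%). In the Lama1 upstream run printed above, ACAAT appears 2 times. These short words are frequent by composition alone and the matches are a description of the letters.

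CpG content at the start sites themselves set the 8 genes beside others. For every protein-coding gene the CpG ratio was taken in the 300 bases around each start site (250 upstream, 50 downstream) and its highest value kept. The ratio was at least 0.6 in 7 of the 8 genes, from 0.767 in Foxa2 to 0.940 in Pdgfra, and 0.540 in Lama1. Among all 12421 genes with a ratio of at least 0.6, 94.9% had a GFP-negative and 87.1% a GFP-positive promoter peak. Among the 7 primitive endoderm genes in that band 5 and 3 did. Foxa2 and Sox17 lacked one in both lists, and Gata6 and Sox7 in the GFP-positive list, although their start sites were CpG-rich. For Sox17 this rests on the window edge, since the wider promoter rules named above gave it a promoter peak in both lists. The shares of all genes under those rules are not given here. Lama1 had the lowest ratio and the strongest GFP-negative promoter peak, in a band where 56.5% and 39.0% of 4135 genes had one.

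Further genes were taken from 4 lists chosen by function, which also hold broadly acting genes such as Grb2, Sos1 and Itgb1. Of their 54 members 47 had a GFP-negative and 41 a GFP-positive promoter peak, beside 67.8% and 59.3% of all protein-coding genes. These counts describe the lists and not primitive endoderm genes as a class. All 41 were shared, 6 were GFP-negative only, 0 GFP-positive only, and 7 had none. Of the 14 genes listed under FGF and PDGF signalling, which include the endocytic receptor gene Lrp2, all 14 had a promoter peak in both lists. Of 12 other endoderm transcription factors 11 and 9 did. Gata5 (−log10 q 10.7) and Otx2 (4.57), a homeobox factor of anterior visceral endoderm, had it in the GFP-negative list only, and Hnf4a, a nuclear receptor of visceral endoderm, in neither. Of 13 basement membrane and matrix genes 12 and 11 did, where Sparc, a secreted matrix glycoprotein of parietal endoderm, was GFP-negative only (15.4) and Serpinh1, a collagen chaperone, had none.

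Of 15 genes listed as visceral and parietal endoderm products, 10 and 7 had a promoter peak, the lowest share of the 4 lists. The GFP-negative share was near that of all protein-coding genes (67.8%), and the GFP-positive share was below theirs (59.3%). Afp (−log10 q 1.45), Thbd (3.0) and Trf (6.5) had one in the GFP-negative list only. Apoa1, Apob, Cer1, Cubn and Ttr had none in either, which covers apolipoproteins, a BMP and Nodal antagonist, an endocytic receptor and a thyroid hormone carrier. For comparison, 10 and 9 of 10 naive pluripotency factors had a promoter peak, with Prdm14 GFP-negative only (2.56). Among 10 trophoblast factors 5 and 5 did, with Tead4 GFP-negative only (26.4), Eomes GFP-positive only (6.01), and Cdx2, Elf5, Esx1 and Hand1 in neither. With 8 to 15 genes a list and 1 pooled peak list per cell state, no difference between the gene lists was tested.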

How the data were processed

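CUT&RUN libraries against DPPA4 came from 2 GFP-negative and 2 GFP-positive samples, grouped by sample title; the IgG libraries were not used here. The authors trimmed reads with bbduk, aligned them to mm10 with STAR 2.7.10, placing multimapping reads at 1 position, removed duplicates with Picard 2.26.0 and blacklisted regions, and called peaks with MACS2 2.2.6 on pooled libraries (SAMtools 1.14 and bedtools 2.30.0 are also named in the submitters' processing notes). Whether IgG served as control is not given in the sources used here. The deposited fold enrichment is a ratio to the background MACS2 estimated. The deposited −log10 q has a lowest value of 1.30, a q-value of 0.05, and the deposited score was not needed. The study states 1 sequencing depth for all samples, but reads kept after filtering are not given in the sources used here. Columns of samples left unused numbered 0.

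Peaks on chromosomes 1 to 19, X and Y were used, and 1575 GFP-negative and 5 GFP-positive peaks on other sequences were left out. Peaks sharing at least 1 bp were merged into regions, and a region with peaks of both lists took the midpoint between their summits. Promoter windows (2.5 kb upstream to 0.5 kb downstream) have the size the study used for chromatin states of promoters, and the annotation and promoter calls here are not the study's own peak annotation. Sequence came from GRCm38.p6, and 0 regions lay beyond a chromosome end. Merging and promoter calls were tested on simulated peaks. Python 3.11.15, pandas 2.3.3, NumPy 2.4.6 and SciPy 1.17.1 were used. The genes, lists and tests were chosen with earlier results of these data known. All 8 genes are named, and of the other lists each gene with a promoter peak in 1 list or in neither. Regions were named for being a gene's strongest promoter or distal region, or for a −log10 q of 5 or more in 1 list only; others were chosen after their values were seen.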

Additional observations from a re-analysis of the deposited data

How the results depend on the processing

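No paired analysis was possible because the peaks of a group were called on its pooled libraries, and for the same reason no replicate could be left out. Of 65 recomputed values, 55 kept within counting error or 1.5 times of the value reported and 10 moved, and none changed direction by a test since none was run. With both lists at equal length the GFP-negative share of peaks near the 8 genes was 47.9% in place of 60.3%, with 21.9% of regions found in GFP-negative cells alone and 28.1% in GFP-positive cells alone. At that length the lists split evenly genome-wide by construction, and class shares near all genes are not given here. With the 10000 strongest peaks of each list, 1 gene (Lama1) had a GFP-negative promoter peak, 0 a GFP-positive one, and 0% of 2 regions were GFP-positive-specific. With a −log10 q of at least 10, 2 and 1 genes had a promoter peak. Within 10 kb of the gene bodies 3.57% of regions were GFP-positive-specific. Without Gata4, an alternative chosen after seeing the data, 58.6% were GFP-negative-specific. The cause of these shifts was not tested, beyond the shorter lists, smaller window or fewer genes that each alternative sets. The reads kept behind each list were not analysed here, and whether weak peaks of 1 list alone lay below the threshold of the other was not tested.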
